A study of Mus musculus with 6 samples.

Results

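The respiratory chain genes described here are the protein-coding mouse genes of complexes I to V whose symbols name a subunit or a close paralogue of one. They cover the Nduf subunit genes, the Sdh genes, the Uqcr genes with Cyc1, the Cox4 to Cox8 genes, the Atp5 genes, and the 13 protein-coding genes of mitochondrial DNA (mtDNA). Of 25751 genes in the count table, 96 were members, 83 of them nuclear and 13 encoded by mtDNA. The annotation held 3 more matches that the count table lacked: Cox7b2, Cox8c and another entry named Atp5o. A filter on low counts kept 93 for testing, 80 nuclear and all 13 of mtDNA. The 3 left untested were Cox4i2, Cox8b and Ndufa4l2, which lay at or below 0.353 CPM (counts normalized to library size with TMM factors) in every library. Pseudogenes were not members, and Atp5s, an ATP synthase coupling factor gene, was kept with complex V because its symbol fits.

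The treated group consisted of primary wild-type mouse myeloid cells exposed to trimethylamine N-oxide (TMAO), a metabolite of dietary choline and carnitine, with a labelled time of 24 h (3 libraries). The control group was the same cell type and genotype without TMAO at 24 h (3 libraries). The sources used here do not give the dose, the tissue of origin, or the age and sex of the mice. Table columns were named T-BMDM for the treated and Control for the untreated samples, and the labels do not explain the difference, so any difference in cell preparation cannot be told apart from TMAO. The libraries are not stated to come from separate cultures or animals, so every p-value reflects only library-to-library spread, which may be technical.

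The respiratory chain passes electrons from NADH and succinate to oxygen and uses the proton gradient this builds to make ATP. Complex I oxidizes NADH, complex II oxidizes succinate, complex III passes electrons from ubiquinol to cytochrome c, complex IV reduces oxygen, and complex V is the ATP synthase. Complexes I, III, IV and V each combine nuclear-encoded subunits with subunits made inside the mitochondrion from mtDNA, whereas complex II is wholly nuclear. Both strands of mtDNA are transcribed as long precursors that are cut into mRNAs, rRNAs and tRNAs, while each nuclear gene has its own promoter. In activated macrophages, respiration and succinate oxidation are known to be remodelled.

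The libraries held 37759007 to 41735109 counts. Macrophage markers (12 genes, 5 called higher and 5 lower) summed to 42980 to 52279 CPM in TMAO and 44493 to 49413 CPM in control libraries. Most of that sum was Lyz2. Of the 5 called lower, Adgre1, which encodes F4/80, averaged 526 ± 67.3 CPM in TMAO and 1705 ± 56.5 CPM in control cells (SD, n = 3 each). Of the 5 called higher, Cd14 averaged 3726 ± 254 CPM in TMAO and 522 ± 77.8 CPM in control cells. C1qa, also called higher, averaged 240 ± 45.4 CPM in TMAO and 142 ± 11.7 CPM in control cells. Markers of neutrophils and their precursors (18 genes, 15 called higher and 2 lower) summed to 4557 to 5817 CPM in TMAO and 490 to 537 CPM in control libraries. Monocyte markers (9 genes, 9 called higher) summed to 1415 to 1469 CPM in TMAO and 416 to 514 CPM in control libraries. Of these, Hp averaged 358 CPM in TMAO and 264 CPM in control cells, and Ly6c2 351 CPM in TMAO and 159 CPM in control cells. Markers of dividing cells (12 genes, 11 called higher) summed to 607 to 664 CPM in TMAO and 271 to 315 CPM in control libraries. Most of the control sum was Pcna, the gene not called, at 244 ± 4.11 CPM in TMAO and 241 ± 23.7 CPM in control cells. The sums therefore understate the change of the other genes. B cell markers (7 genes, 6 tested, 5 called higher) reached 11.9 to 16.0 CPM in TMAO and 2.44 to 3.58 CPM in control libraries, where Pax5 and Ebf1 were at 0. Erythroid and megakaryocyte markers (9 genes, 5 tested, 4 called higher and 1 lower) summed to 352 to 536 CPM in TMAO and 43.8 to 65.8 CPM in control libraries. That sum came mostly from Pf4, a platelet gene, and the gene called lower was the globin gene Hbb-bs. The part of these cell types in the results below was not tested, and in bulk samples fewer cells of a type and less RNA per cell cannot be told apart.

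Most nuclear members tested were higher and most mtDNA-encoded members lower in TMAO-treated than in control cells. Of 80 nuclear members tested, 57 were higher and 2 were lower, at a Benjamini-Hochberg adjusted p under 0.05 in edgeR's quasi-likelihood test over all genes. Across all 14626 genes tested, 33.0% were called higher and 32.7% lower. Of the 13 mtDNA-encoded members, 0 were higher and 11 were lower, and 2 were not called. At an unadjusted p under 0.05 in edgeR 0 of them were higher, and 0 in DESeq2. The median log2 fold change was 0.47 over the nuclear and -0.95 over the mtDNA-encoded members, against 0.005 over all genes tested. Groups did not overlap for 52 nuclear and 11 mtDNA-encoded members, and for 71.0% of all genes tested. The nuclear split depended on a trend of the fold change with transcript length, without which 20 nuclear members were higher and 16 lower, and the mtDNA-encoded split on GC content, without whose trend 2 were higher and 7 lower.

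**Figure D1:**
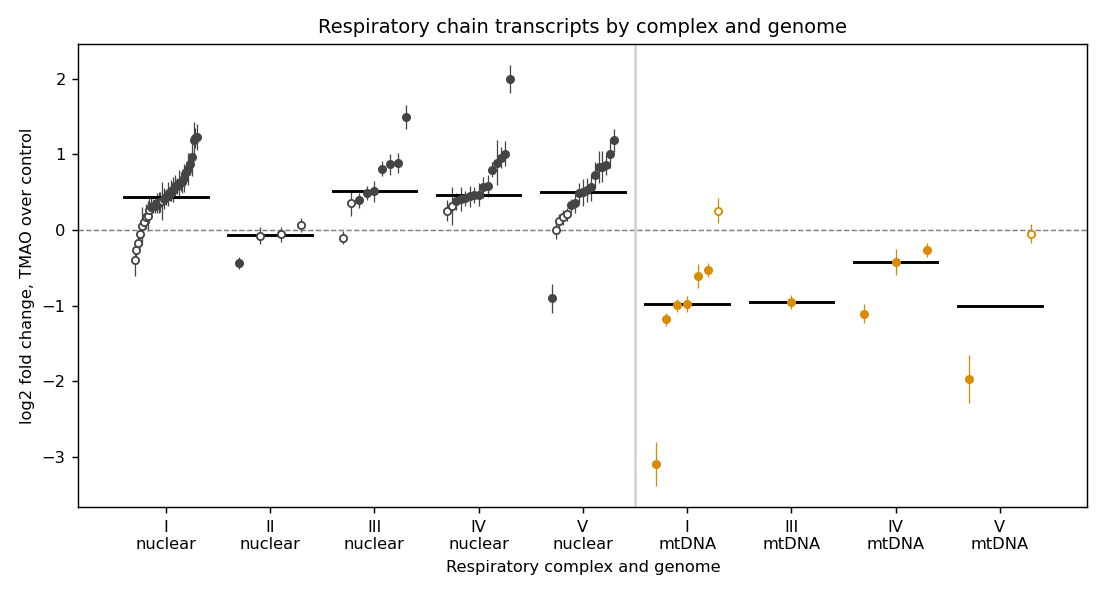
Log2 fold change (TMAO over control) of each tested member, grouped on the x axis by complex and genome; points are genes, vertical bars are the standard error of the log2 fold change, filled points passed an adjusted p under 0.05 and black lines are group medians. The nuclear medians of complexes I, III, IV and V lie between 0.44 and 0.51, complex II lies at -0.07, and the mtDNA-encoded medians lie below 0.

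The promoters of 3 nuclear members are shown for the letters that the nuclear respiratory factors and their partners are known to read. Ndufs8 and Atp5g1 are the nuclear members called higher that had among the highest fold changes and a sequence to print, and Sdha is a subunit gene that was called lower. Each covers 250 bases before to 50 bases after the annotated start, from RefSeq on GRCm38.p6, written 5′ to 3′ on the gene's strand. Ndufs8 is at chr19:3912725-3913024 (minus strand), Atp5g1 at chr11:96075582-96075881 (minus strand) and Sdha at chr13:74350191-74350490 (minus strand). Capitals mark matches on either strand to GCGCA followed by any base and GCGC (NRF1), CCGGAAG (ETS factors such as the GABP complex), AAGATGGCG (YY1) or CCAAT (the CCAAT box).
Ndufs8: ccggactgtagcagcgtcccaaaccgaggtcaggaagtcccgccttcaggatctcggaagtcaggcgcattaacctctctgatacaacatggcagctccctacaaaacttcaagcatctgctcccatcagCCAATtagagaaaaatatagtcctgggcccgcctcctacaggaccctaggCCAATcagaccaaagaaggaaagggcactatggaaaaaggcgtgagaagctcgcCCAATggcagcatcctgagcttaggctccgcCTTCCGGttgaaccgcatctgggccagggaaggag
Atp5g1: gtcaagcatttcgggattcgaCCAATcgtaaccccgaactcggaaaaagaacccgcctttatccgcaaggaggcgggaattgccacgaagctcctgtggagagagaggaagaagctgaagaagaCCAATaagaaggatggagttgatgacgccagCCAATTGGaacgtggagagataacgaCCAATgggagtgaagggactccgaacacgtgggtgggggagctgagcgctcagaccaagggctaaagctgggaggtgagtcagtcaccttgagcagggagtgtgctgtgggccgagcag
Sdha: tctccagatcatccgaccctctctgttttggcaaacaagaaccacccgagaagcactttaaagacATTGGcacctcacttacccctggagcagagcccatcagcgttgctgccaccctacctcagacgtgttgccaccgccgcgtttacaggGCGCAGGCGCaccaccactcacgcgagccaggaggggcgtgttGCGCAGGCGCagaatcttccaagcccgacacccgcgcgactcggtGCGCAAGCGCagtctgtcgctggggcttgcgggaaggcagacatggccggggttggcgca
Ndufs8 held 1 ETS match and 3 CCAAT boxes, Atp5g1 held 5 CCAAT boxes of which a pair share letters, and Sdha held 3 NRF1 matches and 1 CCAAT box. Of the 83 nuclear members, 65 had a promoter in the RefSeq table. The NRF1 letters occurred in 17 of them (26.2%), against 5.19% of 27025 genes with a promoter. The ETS letters occurred in 16 (24.6%), against 9.93%, and the YY1 letters in 7 (10.8%), against 1.64%. CCAAT occurred in 28 (43.1%), against 41.1%. Among members tested, those with the NRF1 letters were called higher in 11 of 17 cases with 1 called lower and a median log2 fold change of 0.39. Those without them were called higher in 37 of 47 cases with a median of 0.48, and the difference was not tested.

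The mtDNA-encoded mRNAs together made up 1.89%, 1.54% and 1.64% of counts in the TMAO libraries, against 3.18%, 3.38% and 3.57% in the control libraries. Every TMAO library lay below every control library, and the mean was 1.69% ± 0.179 in TMAO and 3.38% ± 0.195 in control (SD, n = 3 each), a ratio of 0.501. Nuclear member counts per mtDNA-encoded count were 0.447, 0.678 and 0.578 in TMAO libraries, against 0.218, 0.228 and 0.189 in control libraries, so this ratio was higher in each TMAO library. Its mean was 0.568 ± 0.116 in TMAO and 0.211 ± 0.0203 in control (SD, n = 3 each), 2.69 times as high. These sums over members carry no test.

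The largest part of the mtDNA signal was mt-Co1, which encodes the catalytic subunit of complex IV. It held 9725, 6769 and 8383 CPM in TMAO libraries, against 16942, 18065 and 18458 CPM in control libraries. Every TMAO library was below every control library (log2 fold change -1.10, SE 0.13, adjusted p = 3.11e-05). Per kilobase of transcript, mt-Co1 was also the highest of all members, at 5367 CPM in TMAO and 11535 CPM in control cells. By comparison the highest nuclear members per kilobase were Cox6a1 in TMAO (492 CPM) and Cox8a in control cells (344 CPM).

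Among the complex I genes of mtDNA, which encode membrane-arm subunits that pump protons, mt-Nd2 held 635, 628 and 606 CPM in TMAO libraries, against 1275, 1448 and 1517 CPM in control libraries. Its groups were far apart (log2 fold change -1.18, SE 0.09, adjusted p = 2.02e-06). The gene mt-Nd1 averaged 1699.9 ± 36.4 CPM in TMAO and 3392 ± 261 CPM in control cells (a fold of 0.501, adjusted p = 5.45e-06), and mt-Nd5 averaged 1661 ± 150.1 CPM in TMAO and 3273 ± 363 CPM in control cells (-0.98). Smaller falls were measured for mt-Nd4 (-0.53, adjusted p = 5.94e-04) and mt-Nd3 (-0.61, adjusted p = 0.0061). The widest difference was that of mt-Nd4l, at 1.84, 0.770 and 1.33 CPM in TMAO libraries, against 8.21, 11.7 and 13.9 CPM in control libraries (log2 fold change -3.09, SE 0.29, adjusted p = 7.63e-06). It is a short gene with few counts, at 73, 28 and 51 in TMAO libraries and 319, 486 and 574 in control libraries. Gm10222, a pseudogene identical to it over the aligned part, held 49, 22 and 29 counts in TMAO libraries. In control libraries Gm10222 held 277, 336 and 536 counts. How reads were divided between this pair was not tested. The complex III gene mt-Cytb, which encodes cytochrome b, fell to 2374 ± 158 CPM in TMAO, against 4590 ± 364 CPM in control cells (SD, n = 3 each; log2 fold change -0.95, adjusted p = 1.22e-05).

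The remaining complex IV and V genes of mtDNA were lower in abundance. mt-Co3 held 63.6, 71.5 and 69.6 CPM in TMAO libraries, against 84.3, 84.3 and 77.2 CPM in control libraries (log2 fold change -0.26, adjusted p = 0.022). mt-Co2 held 121, 138 and 129 CPM in TMAO libraries, against 139, 233 and 148 CPM in control libraries (-0.42, adjusted p = 0.0497). For both genes the groups were apart by little, and control replicate 2 was far above the other mt-Co2 values; without it the mt-Co2 log2 fold change was -0.15 (adjusted p = 0.226). Leaving out TMAO replicate 1, 2 or 3 ended the mt-Co2 call as well, with an adjusted p of 0.0801, 0.0541 and 0.116, as did DESeq2 size factors (0.0516) and a filter of 1 CPM in 3 libraries (0.0571). The mt-Co3 call was lost without TMAO replicate 1 or 3 or control replicate 1 or 2, with adjusted p from 0.0589 to 0.083. mt-Atp8, which overlaps mt-Atp6 and encodes an ATP synthase stator subunit, held 1.29, 1.18 and 0.678 CPM in TMAO libraries, against 2.57, 5.10 and 4.63 CPM in control libraries (-1.96, adjusted p = 3.17e-04). How reads in that overlap were counted is not given in the sources used here. mt-Atp6, which encodes the proton channel subunit, averaged 51.5 ± 6.07 CPM in TMAO and 53.2 ± 8.18 CPM in control cells (SD, n = 3 each) and its groups overlapped (-0.05, adjusted p = 0.767).

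The only mRNA on the other strand is mt-Nd6, another proton-pumping subunit of complex I. It held 705, 1147 and 768 CPM in TMAO libraries, against 643, 813 and 739 CPM in control libraries, and the groups overlapped (log2 fold change 0.26, SE 0.17, adjusted p = 0.204). Without TMAO replicate 1 it was called higher (0.39, adjusted p = 0.0388). Counts of overlapping genes on opposite strands cannot be told apart here, because the strand setting of the counting is not given in the sources used here.

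The rRNA genes of mtDNA, which are not members, were higher in TMAO-treated cells, the other way from most mRNAs of the same strand. mt-Rnr1, the small-subunit rRNA, held 542, 815 and 639 CPM in TMAO libraries, against 234, 241 and 203 CPM in control libraries (2.94-fold, log2 fold change 1.56, adjusted p = 6.43e-06). mt-Rnr2, the large-subunit rRNA, held 1019, 1505 and 1123 CPM in TMAO libraries, against 456, 487 and 467 CPM in control libraries (2.59-fold, log2 fold change 1.37, adjusted p = 1.03e-05). For both rRNAs every TMAO library lay above every control library. The libraries were made from RNA selected on oligo(dT) beads, so these values count the rRNA that passed that selection.

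**Figure D2:**
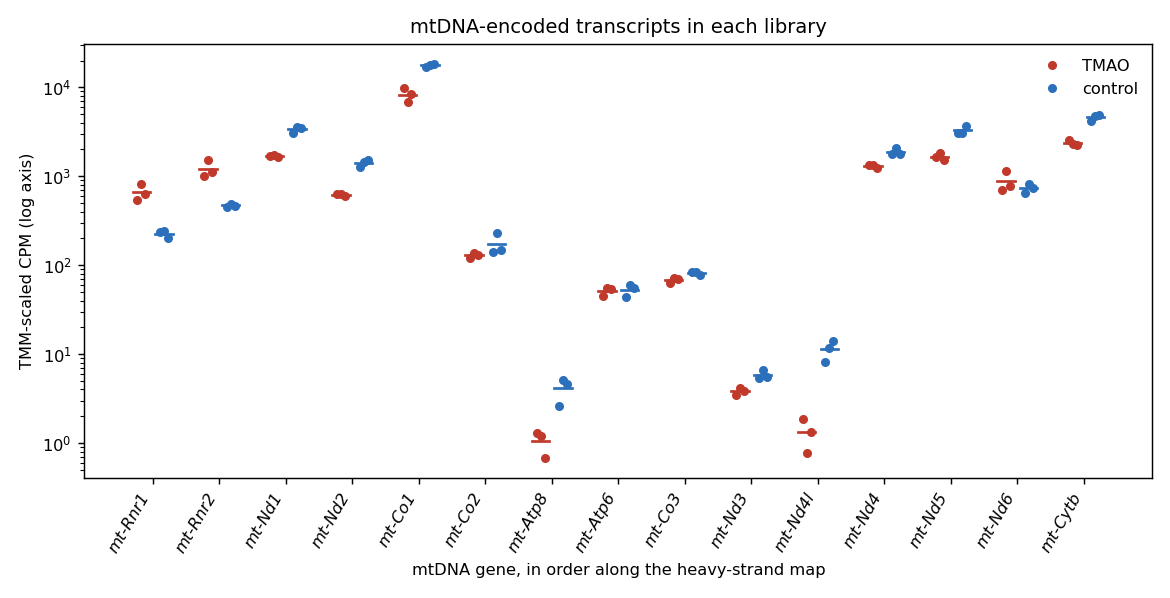
TMM-scaled CPM (log axis) of the 13 mtDNA-encoded mRNAs and the 2 mtDNA rRNAs, with a point for each library, a line for the group mean, and TMAO left of control for every gene. The rRNAs are higher in TMAO, mt-Nd6 and mt-Atp6 overlap between groups, and the other 11 genes lie lower in TMAO.

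For 7 of the 13 mtDNA-encoded genes the table also lists a pseudogene on chromosome 1 that is at least 99.7% identical over the aligned part, so reads could have been divided between them in counting. The pseudogene of mt-Atp6, Gm10925, held 2392, 2206 and 2092 counts in TMAO libraries, against 3528, 4460 and 4130 counts in control libraries, while mt-Atp6 itself held 1763, 2016 and 2089 counts in TMAO libraries, against 1718, 2493 and 2272 counts in control libraries. With the counts of such copies added to their genes, mt-Atp6 was called lower (log2 fold change -0.47, adjusted p = 0.00169) and mt-Co2 no longer was (-0.31, adjusted p = 0.0788), and the number called lower was again 11 of 13. The 6 genes without such a copy included 5 called lower, with a median log2 fold change of -0.99, and the 7 with a copy included 6 called lower, with a median of -0.53.

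In complex I, 25 of 35 nuclear subunit genes were called higher and 0 lower in TMAO-treated cells. At an unadjusted p under 0.05 in edgeR 0 were lower, and 0 in DESeq2, and the same held for the counts of 0 given for complexes II, III and IV. Without control replicate 3 the number called higher was 16. The matrix arm that takes electrons from NADH (8 genes) had 6 called higher, and the quinone-binding module (7 genes) had 6, against 33.0% of all genes tested. Removing the trend of fold change on transcript length left 2 higher and 2 lower in the matrix arm. It left 1 higher and 0 lower in the quinone-binding module, against 34.5% and 31.3% of all genes.

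Ndufs8 encodes an iron-sulfur subunit next to the quinone site. It held 87.1, 109 and 101 CPM in TMAO libraries, against 40.9, 50.1 and 36.8 CPM in control libraries. Every TMAO library lay above every control library (2.32-fold, log2 fold change 1.21, SE 0.13, adjusted p = 1.77e-05). The accessory subunit gene Ndufa2 held 92.0, 154 and 113 CPM in TMAO libraries, against 47.7, 58.4 and 47.6 CPM in control libraries (2.34-fold, adjusted p = 1.17e-04). Ndufb9, an accessory subunit gene of the membrane arm, held 15.4, 32.4 and 18.9 CPM in TMAO libraries, against 9.16, 11.2 and 8.94 CPM in control libraries (2.27-fold, adjusted p = 0.00144). For both genes TMAO replicate 2 was the highest library.

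Other nuclear core subunits, which with Ndufs8 carry the flavin, iron-sulfur clusters and quinone site, had log2 fold changes of 0.64 or less. Ndufs3 rose to 86.4 ± 19.3 CPM in TMAO, against 55.5 ± 5.98 CPM in control cells (log2 fold change 0.64, adjusted p = 0.00354). Ndufv1, the NADH-binding flavoprotein gene, averaged 81.3 ± 6.01 CPM in TMAO and 65.3 ± 5.17 CPM in control cells (log2 fold change 0.31). Ndufs7 (0.41) and Ndufv2 (0.36) were also called higher. These calls of Ndufs7, Ndufv1 and Ndufv2 each ended when control replicate 1 was left out, with adjusted p of 0.0735, 0.0697 and 0.162, and when control replicate 3 was left out, with 0.0983, 0.0654 and 0.0747. Without TMAO replicate 2 those of Ndufs7 (0.079) and Ndufv2 (0.136) ended, and that of Ndufv2 also ended without TMAO replicate 3 (0.0521) and without control replicate 2 (0.052). Ndufs1, the large iron-sulfur subunit gene, averaged 51.6 ± 4.11 CPM in TMAO and 58.3 ± 2.91 CPM in control cells and was not called (-0.17, adjusted p = 0.124), but was called lower without TMAO replicate 2 (-0.24, adjusted p = 0.0407). Among the nuclear members of complex I the lowest fold change was that of Ndufa12, an accessory gene, at 25.9, 37.2 and 28.8 CPM in TMAO libraries, against 42.4, 51.4 and 26.7 CPM in control libraries, with groups that overlapped (-0.39, adjusted p = 0.131). It has a nearly identical pseudogene that held 79.2% as many counts as the gene, and with those added the log2 fold change of Ndufa12 was 0.57 (adjusted p = 0.00546). Ndufb8 was not called either (-0.27, adjusted p = 0.0838), and without control replicate 3 both were called lower (Ndufa12 -0.62, adjusted p = 0.009; Ndufb8 -0.38, adjusted p = 0.0245), as was Ndufb8 without TMAO replicate 2 (-0.34, adjusted p = 0.049).

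In complex II, 0 of 4 genes were called higher and 1 lower. Sdha, which encodes the flavoprotein that oxidizes succinate, held 199, 181 and 182 CPM in TMAO libraries, against 251, 262 and 247 CPM in control libraries. All 3 TMAO values lay below all control values (log2 fold change -0.43, SE 0.08, adjusted p = 8.26e-04), and the adjusted p was at most 0.00816 under every alternative tried. The genes for the iron-sulfur subunit and the membrane anchors overlapped between groups. Sdhb averaged 145 ± 18.8 CPM in TMAO and 152 ± 13.9 CPM in control cells (-0.07, adjusted p = 0.584), Sdhc 116 ± 13.3 CPM in TMAO and 121 ± 6.15 CPM in control cells (-0.06, adjusted p = 0.634), and Sdhd 121 ± 7.12 CPM in TMAO and 116 ± 9.55 CPM in control cells (0.06, adjusted p = 0.58; SD, n = 3 each). Sdhb (-0.49, adjusted p = 5.72e-05) and Sdhd (-0.33, adjusted p = 0.00346) were called lower with the trend of fold change on transcript length removed. Sdhb was also called lower with that on GC content removed (-0.26, adjusted p = 0.0468).

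In complex III, 7 of 9 nuclear genes were called higher and 0 lower. Uqcrq, an accessory subunit gene, held 162, 248 and 202 CPM in TMAO libraries, against 67.4, 84.1 and 65.1 CPM in control libraries. Every TMAO value was above every control value (2.82-fold, SE of the log2 fold change 0.16, adjusted p = 1.54e-05). The Rieske iron-sulfur protein gene Uqcrfs1 rose to 113 ± 10.5 CPM in TMAO, against 64.5 ± 4.39 CPM in control cells (log2 fold change 0.81, adjusted p = 4.37e-05), and the cytochrome c1 gene Cyc1 to 95.4 ± 7.30 CPM, against 68.0 ± 3.89 CPM in control cells (0.49, adjusted p = 8.73e-04). The hinge protein gene Uqcrh (0.87) and Uqcr10 (0.88) rose as well. The core protein genes differed: Uqcrc1 rose (0.39, adjusted p = 0.00481), although not with the trend of fold change on transcript length removed (0.09, adjusted p = 0.296) or that on GC content (0.17, adjusted p = 0.087), whereas Uqcrc2 held 88.6, 76.6 and 90.3 CPM in TMAO libraries, against 91.1, 93.7 and 89.1 CPM in control libraries and was not called (-0.10, adjusted p = 0.35). Uqcrb was not called (0.35, adjusted p = 0.0823), but was called higher without TMAO replicate 1 (0.49, adjusted p = 0.0097).

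In complex IV, 13 of 15 nuclear genes tested were called higher and 0 lower, with 18 members listed in all. Without control replicate 3 the number called higher was 8. Cox6a2, the isoform best known from heart and skeletal muscle, held 14.3, 20.2 and 18.7 CPM in TMAO libraries, against 3.99, 3.84 and 5.47 CPM in control libraries. The groups were far apart and its fold change was the highest of all members (3.99-fold, SE of the log2 fold change 0.18, adjusted p = 6.17e-06). The widely expressed isoform Cox6a1 held 234, 344 and 265 CPM in TMAO libraries, against 150.4, 158 and 111 CPM in control libraries (2.01-fold, adjusted p = 3.09e-04). Per kilobase, Cox6a2 made up 5.05% ± 0.482 of the pair in TMAO and 2.72% ± 1.09 in control cells (SD, n = 3 each), with each TMAO library above each control library, so it stayed the minor isoform.

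Cox4i1, which encodes the regulatory subunit that binds ATP, rose to 302 ± 49.4 CPM in TMAO, against 156 ± 23.4 CPM in control cells (1.94-fold, adjusted p = 1.64e-04), while its low-oxygen isoform gene Cox4i2 was near 0 and not tested. Cox7a2l, a supercomplex assembly gene, rose to 281 ± 29.0 CPM in TMAO, against 162 ± 14.5 CPM in control cells (log2 fold change 0.80, adjusted p = 7.16e-05). Cox7a2 (0.58, adjusted p = 0.00506) and Cox7b (0.42, adjusted p = 0.00366) were called higher. Cox5a (0.38) and Cox6b1 (0.47) were called higher as well, but not without control replicate 1 (adjusted p = 0.052 and 0.0995) or control replicate 3 (0.0508 and 0.0688), and Cox5a not without TMAO replicate 3 (0.0632) or Cox6b1 without TMAO replicate 2 (0.0712). The testis isoform Cox6b2 was called higher at 1.99 ± 0.449 CPM in TMAO and 1.08 ± 0.337 CPM in control cells (0.89, adjusted p = 0.0227), but not without TMAO replicate 2 or 3 or control replicate 2 or 3 (adjusted p from 0.0557 to 0.0942). The muscle isoform Cox7a1 was low, at 1.84 ± 0.406 CPM in TMAO and 1.48 ± 0.0821 CPM in control cells, and was not called (0.32, adjusted p = 0.28), and Cox8a (0.26, adjusted p = 0.131) was called higher only without TMAO replicate 1 among the libraries left out in turn (0.38, adjusted p = 0.0161). Cox8b and Ndufa4l2 were near 0 and not tested.

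Ndufa4 encodes a complex IV subunit that was first assigned to complex I, and it rose to 126 ± 24.1 CPM in TMAO, against 85.2 ± 9.81 CPM in control cells (log2 fold change 0.57, adjusted p = 0.00442). Its paralogue AA467197 (Nmes1), which is known to be induced in inflammatory macrophages and to replace NDUFA4 in complex IV, is not a member by name. It held 17.6, 29.6 and 23.3 CPM in TMAO libraries, against 3.29, 3.43 and 3.25 CPM in control libraries. Every TMAO library was above every control library (7.06-fold, log2 fold change 2.82, SE 0.19, adjusted p = 7.55e-07).

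**Figure D3:**
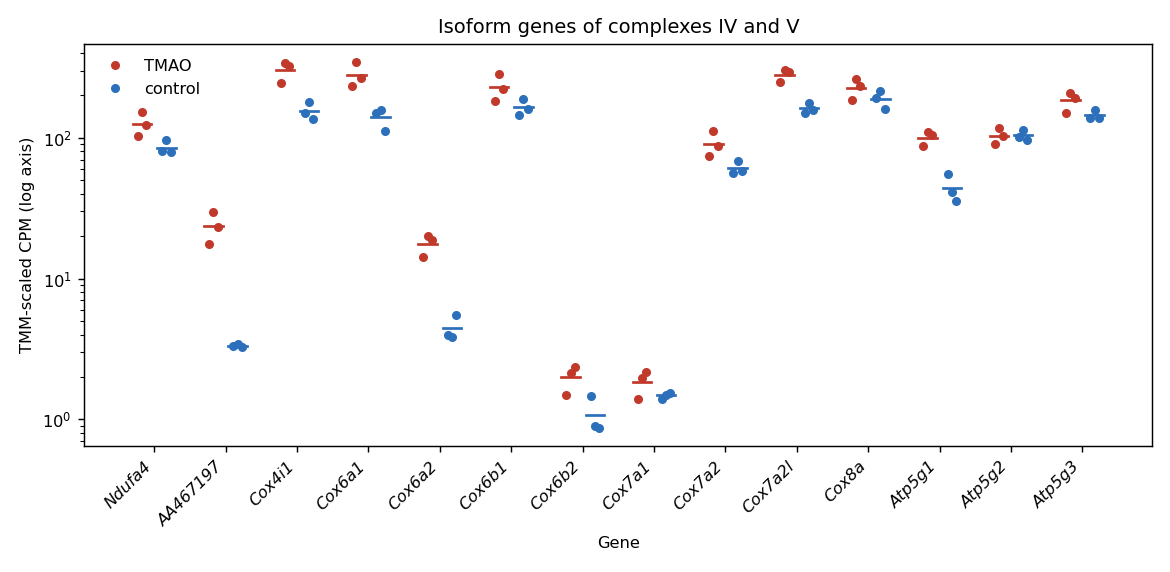
TMM-scaled CPM (log axis) of isoform genes of complexes IV and V and of the Ndufa4 paralogue AA467197, with a point for each library, a line for the group mean, and TMAO left of control. AA467197 and Cox6a2 show the widest gaps between groups, at 7.06-fold and 3.99-fold, and Atp5g2 overlaps.

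In complex V, 12 of 17 nuclear genes were called higher and 1 lower, and without control replicate 1 the number called higher was 7. The catalytic beta subunit gene Atp5b, the highest nuclear member by mean CPM in TMAO cells, held 658, 677 and 706 CPM in TMAO libraries, against 538, 585 and 506 CPM in control libraries. Each TMAO value exceeded each control value (log2 fold change 0.33, SE 0.09, adjusted p = 0.00697), but with the length trend removed Atp5b was not called (0.09, adjusted p = 0.221). Its partner Atp5a1 averaged 635 ± 30.7 CPM in TMAO and 549 ± 33.2 CPM in control cells and was not called (0.21, adjusted p = 0.0508), though it passed in DESeq2 (adjusted p = 0.0322) and without TMAO replicate 2 (adjusted p = 0.0383). The stator gene Atp5f1 was not called (0.12, adjusted p = 0.272). In the central stalk, the delta gene Atp5d rose (0.86, adjusted p = 1.74e-04), and the gamma gene Atp5c1 was not called (0.17, adjusted p = 0.176) unless TMAO replicate 1 was left out (0.25, adjusted p = 0.0345). Atp5o, the stator gene whose product confers oligomycin sensitivity, rose to 12.7 ± 2.94 CPM in TMAO, against 6.32 ± 1.09 CPM in control cells (2.01-fold, adjusted p = 0.00102). Another annotated entry of that name, also on chromosome 16, had no counts in the table, so these values may hold only part of the gene's reads.

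The rotating c-ring is built from identical mature subunits encoded by Atp5g1, Atp5g2 and Atp5g3, which differ in their import peptides. Atp5g1 held 87.2, 109 and 104 CPM in TMAO libraries, against 55.4, 41.5 and 35.7 CPM in control libraries, and every TMAO library was higher (2.27-fold, log2 fold change 1.18, adjusted p = 7.71e-05). Atp5g2 did not separate the groups in the main fit, at 104 ± 14.0 CPM in TMAO and 104 ± 9.15 CPM in control cells (-0.01, adjusted p = 0.97). It was called lower with the length trend removed (-0.48, adjusted p = 3.36e-05) and with the GC trend removed (-0.39, adjusted p = 0.00389). Atp5g3 was called higher (0.35, adjusted p = 0.0275), but not without TMAO replicate 2 or 3 or control replicate 1 or 3, with adjusted p from 0.0889 to 0.104. The share of Atp5g1 in the counts of the 3 genes was 25.9% ± 0.834 in TMAO and 15.1% ± 3.16 in control cells, and that of Atp5g2 was 26.7% ± 0.984 in TMAO and 35.5% ± 0.985 in control cells (SD, n = 3 each). A pseudogene of Atp5g1 held 50.6% as many counts as the gene, so its reads may be divided, and the same holds for Atp5l (82.0%), Atp5o (20.4%), Atp5h (13.5%) and Uqcrb (12.4%) of the nuclear members. Atp5s fell to 1.94 ± 0.298 CPM in TMAO, against 3.62 ± 0.254 CPM in control cells (log2 fold change -0.90, adjusted p = 0.00189). Its adjusted p reached 0.0522 among the alternatives, where the call ended.

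**Figure D4:**
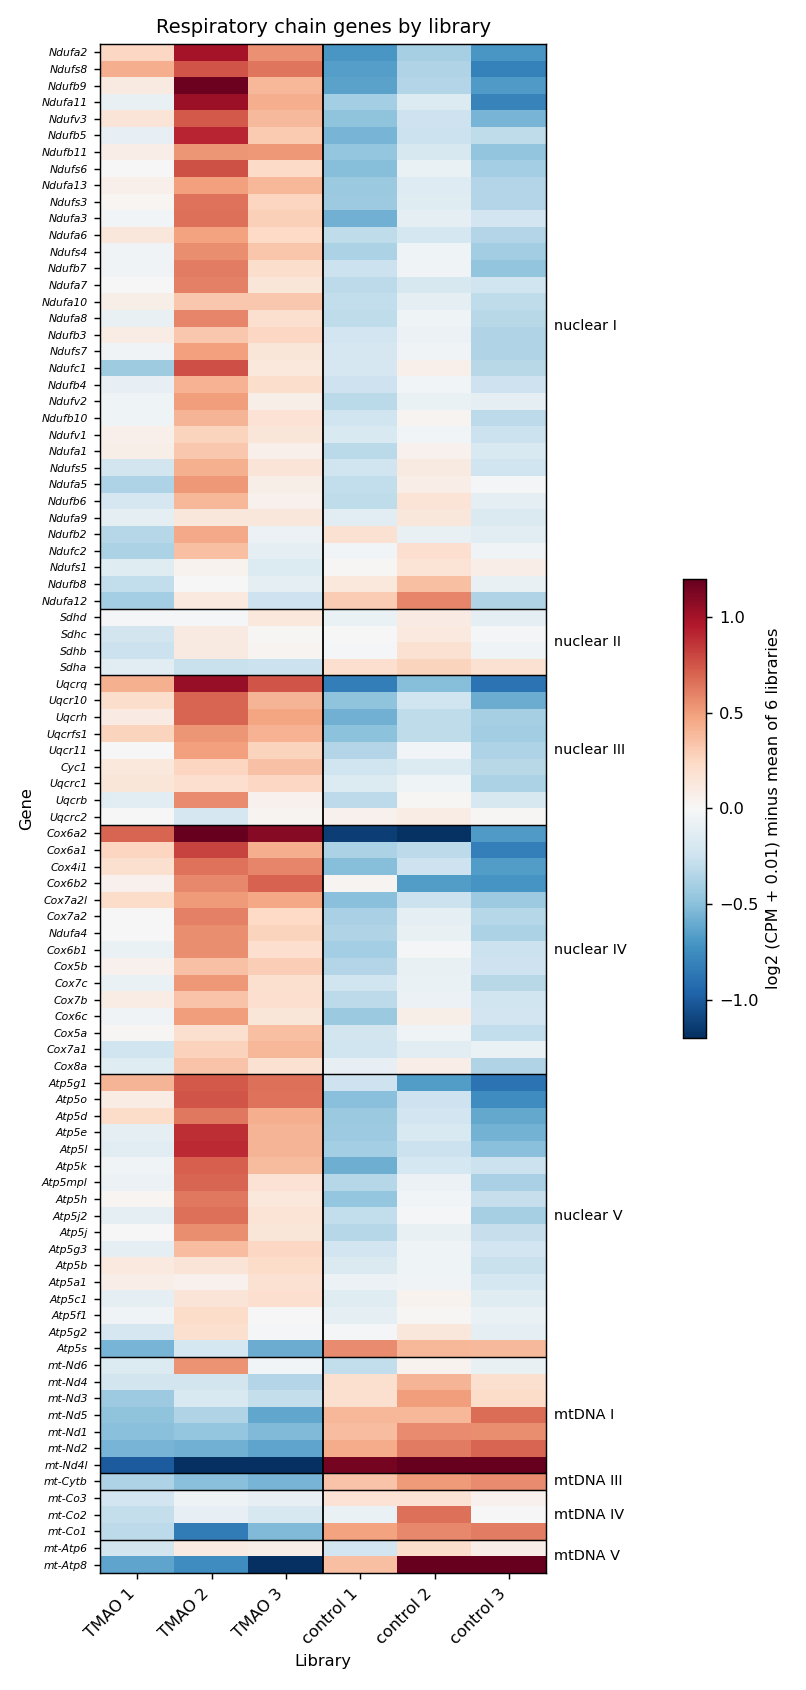
Log2 (CPM + 0.01) of tested members in each library relative to that gene's mean over the 6 libraries, with genes in rows by complex and genome and TMAO libraries left of control libraries. Red is above and blue below the mean; most nuclear rows of complexes I, III, IV and V are redder in TMAO, the highest nuclear values are in TMAO replicate 2, and most mtDNA rows are bluer in TMAO.

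Within the groups, nuclear members moved together across libraries. TMAO replicate 2 was the highest TMAO library for 66 of 80 tested nuclear members and TMAO replicate 1 the lowest for 73. Among controls, replicate 2 was the highest for 74. The nuclear members had short transcripts (median 870 bases), and the fold change of all genes depended on transcript length. Genes in the shortest of 5 length bins (65 to 1399 bases) had a median log2 fold change of 0.50 with 44.9% called higher, and the 57 nuclear members in that bin had a median of 0.52 with 45 called higher. In the longest bin the median over all genes was -0.57. In the shortest bin the library medians followed the order seen in the members, at 0.11, 0.43 and 0.26 in TMAO and -0.27, -0.12 and -0.30 in control libraries.

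With the length trend removed, 20 of 80 nuclear members were called higher and 16 lower, with a median log2 fold change of 0.03, while all 13 mtDNA-encoded members were called lower, with a median of -1.24. By complex, those called higher and lower were 8 and 8 in I, 0 and 3 in II, 4 and 1 in III, 4 and 1 in IV, and 4 and 3 in V. Across all genes 34.5% were then called higher and 31.3% lower. The members that were still called higher included Uqcrq (1.15), Cox6a2 (1.49), Atp5g1 (1.53), Ndufs8 (0.78), Ndufa2 (0.70), Cox4i1 (0.48), Cox6a1 (0.49) and Uqcrfs1 (0.43), and Sdha was still called lower (-0.44). The value of Atp5g1 rests on the length of its longest transcript, 4715 bases, against 753 for Atp5g2 and 723 for Atp5g3. Which transcript the cells made was not tested. Among the members described above as higher, those no longer called were Ndufs3 (0.20), Ndufs7 (-0.04), Ndufv1 (0.01) and Ndufv2 (0.06) of complex I, Cyc1 (0.15) and Uqcrc1 (0.09) of complex III, Cox5a (-0.11), Cox6b1 (-0.04), Cox6b2 (0.37), Cox7a2 (0.07), Cox7b (-0.02) and Ndufa4 (0.06) of complex IV, and Atp5b (0.09) and Atp5g3 (-0.14) of complex V. Some members described above as not called were lower once the length trend was removed. They were Ndufa12 (-0.81), Ndufb8 (-0.43) and Ndufs1 (-0.22) of complex I, Sdhb (-0.49) and Sdhd (-0.33) of complex II, and Uqcrc2 (-0.34) of complex III. Cox8a (-0.26) of complex IV and Atp5f1 (-0.20) and Atp5g2 (-0.48) of complex V were also lower, and Atp5a1 was called higher (0.17). The trend with GC content, when removed, left 45 nuclear members called higher and 4 lower (median 0.43), against 33.5% and 31.8% of all genes. It left 7 mtDNA-encoded members called lower and 2 higher, mt-Nd6 (0.95) and mt-Atp6 (0.58), while mt-Co2 (0.07), mt-Co3 (0.22), mt-Nd3 (0.13) and mt-Nd4 (0.11) turned positive without a call. Ndufs7 (0.15), Ndufv1 (0.10), Uqcrc1 (0.17) and Cox6b2 (0.68) were no longer called with the GC trend removed. mtDNA transcripts are poor in GC (median 37.1%, against 51.4% for the nuclear members).

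**Figure D5:**
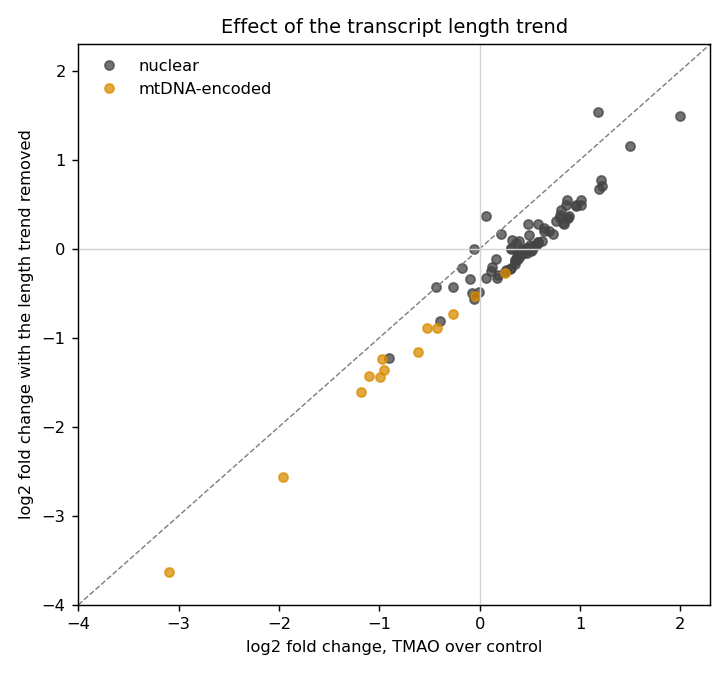
Log2 fold change (TMAO over control) of each tested member on the x axis against the same with the transcript length trend removed on the y axis; the dashed line is equality and colours separate nuclear from mtDNA-encoded members. Nuclear members drop from a median of 0.47 to 0.03 and mtDNA-encoded members from -0.95 to -1.24.

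Other genes of the pathway were taken from lists of assembly factors, coenzyme Q genes and mtDNA regulators. The counts called in these short lists stand beside 33.0% higher and 32.7% lower across all genes tested. With the length trend removed those shares were 34.5% and 31.3%. The median log2 fold change was 0.37 over the complex I, -0.01 over the complex II, 0.57 over the complex III, 0.46 over the complex IV and 0.48 over the complex V assembly lists, and 0.44 over the coenzyme Q list. With the length trend removed these medians were 0.30, 0.01, 0.09, 0.18, 0.03 and 0.29, and the numbers called higher and lower were 9 and 3, 2 and 1, 2 and 2, 11 and 5, 3 and 3, and 5 and 1 in the same order. The calls of Sdhaf3 (-0.41, adjusted p = 0.0506) and Fmc1 (0.03, adjusted p = 0.878) then ended, and with the GC trend removed so did those of Nubpl (adjusted p = 0.0651), Sdhaf3 (0.167) and Fmc1 (0.101). Of the complex I assembly factors, 10 of 16 tested were higher and 2 lower, with Ndufaf6 up (log2 fold change 1.10, adjusted p = 3.84e-04) and Nubpl, an iron-sulfur delivery protein, down (-0.73, adjusted p = 0.00719). Of the complex II assembly factors, 1 of 4 was higher and 1 lower: Sdhaf1 rose (1.40, adjusted p = 0.00474) and Sdhaf3 fell (-0.70, adjusted p = 0.00297). Of the complex III factors, 4 of 7 were higher and 1 lower: Smim4 rose (1.14, adjusted p = 0.00107) and Lyrm7, which stabilizes the Rieske protein, fell to 0.404, 0.413 and 0.417 CPM in TMAO libraries, against 1.21, 1.62 and 1.67 CPM in control libraries (-1.86, adjusted p = 3.63e-04). Of the complex IV factors, 14 of 22 were higher and 3 lower, with Cox20 up (1.77, adjusted p = 0.00487) and Cox15, a haem A synthesis enzyme, down (-0.76, adjusted p = 1.33e-04). Cox20 had few counts, at 0.706 ± 0.0874 CPM in TMAO and 0.204 ± 0.088 CPM in control cells. Its adjusted p reached 0.0574 among the alternatives, where the call ended. Of the complex V factors and inhibitor, 4 of 7 were higher and 2 lower, with Fmc1 up (0.57, adjusted p = 0.0176), although not without TMAO replicate 2 or 3 or control replicate 1 or 2 (adjusted p from 0.0543 to 0.0624). Of the genes in the coenzyme Q list, 8 of 13 were higher and 0 lower in the main fit, led by Coq10b at 33.9 ± 3.67 CPM in TMAO and 12.6 ± 0.378 CPM in control cells (2.69-fold, adjusted p = 1.91e-06). At an unadjusted p under 0.05 in edgeR 0 of these genes were lower, and 0 in DESeq2, and Coq5, a methyltransferase gene, was not called (-0.25, adjusted p = 0.082). Coq5 was called lower with the length trend removed (-0.44, adjusted p = 0.00263) and with the GC trend removed (-0.30, adjusted p = 0.032).

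The median log2 fold change was 0.02 over other genes of electron entry, 0.02 over mtDNA transcription and replication, 0.29 over mitochondrial RNA processing and 0.01 over the nuclear regulators. With the length trend removed these medians were 0.37, 0.22, 0.31 and 0.35, so the order of the lists depends on that trend. The numbers called higher and lower were then 6 and 3, 7 and 3, 8 and 5, and 6 and 1, against 34.5% and 31.3% of all genes. The counts below are from the main fit, in which 33.0% of all genes tested were called higher and 32.7% lower. Cycs, which encodes the mobile electron carrier cytochrome c, rose to 95.6 ± 10.8 CPM in TMAO, against 48.6 ± 7.53 CPM in control cells (log2 fold change 0.98, adjusted p = 8.28e-05). Of 11 genes of cytochrome c and other electron entry, 5 were higher and 2 lower, with Etfb up (1.65, adjusted p = 0.00275) and Prodh, proline dehydrogenase, down (-0.53, adjusted p = 0.00679). Of 14 tested genes of mtDNA transcription and replication, 6 were higher and 2 lower. The helicase gene Twnk rose (0.98, adjusted p = 7.89e-05), and Mterf1b fell (-1.16, adjusted p = 0.0156), a call that was lost without TMAO replicate 3 or control replicate 2 (adjusted p = 0.0654 and 0.0593). Tfam, the mtDNA packaging and transcription factor gene, did not separate the groups, at 19.1, 22.6 and 18.8 CPM in TMAO libraries and 19.0, 20.2 and 20.6 CPM in control libraries (0.01, adjusted p = 0.919). It was called higher with the length trend removed (0.28, adjusted p = 0.0427), but not with the GC trend removed (0.18, adjusted p = 0.133). Of 15 genes of mitochondrial RNA processing and stability, 8 were higher and 4 lower, with Fastkd5, needed to process mtDNA mRNAs without flanking tRNAs, up (1.57, adjusted p = 1.77e-05) and the polynucleotide phosphorylase gene Pnpt1 down (-0.59, adjusted p = 3.45e-04). With the GC trend removed the calls of Mterf1b (adjusted p = 0.073) and Pnpt1 (0.0619) ended. Of 9 nuclear regulators tested, 4 were higher and 2 lower, with Nrf1 up at 41.4 ± 2.02 CPM in TMAO and 23.0 ± 0.549 CPM in control cells (0.84, adjusted p = 1.69e-05). The coactivator gene Ppargc1b fell to 0.779 ± 0.133 CPM in TMAO, against 4.13 ± 0.833 CPM in control cells (-2.40, adjusted p = 1.33e-05), and Ppargc1a lay below 0.2 CPM in every library and was not tested.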

How the data were processed

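The authors deposited a table of raw read counts per Ensembl gene for the 6 libraries, as whole numbers without normalization. Per the labels' protocols, mRNA was captured on oligo(dT) beads and sequenced paired-end on instruments of 2 makers, with no record of which library ran on which. A platform difference therefore cannot be told apart from TMAO. Reads were placed on GRCm39, per the submitters' processing notes, and the sources used here do not give the aligner, counter or strand setting. Symbols, longest protein-coding transcripts, length and GC content came from GENCODE M21 on the older build (25386 of 25751 IDs matched), and no coordinates were taken from it.

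Counts were fitted in R 4.3.3 with edgeR 4.0.16. After filterByExpr (minimum count 10), 14626 genes were scaled with TMM, and a two-sided quasi-likelihood test compared TMAO with control without covariates, with Benjamini-Hochberg adjustment over all genes and a threshold of 0.05. CPM values are TMM-scaled and errors are SD over 3 libraries. Trends with length and GC content were fitted per library with lowess (span 0.3) and used as offsets. Pseudogene copies were found with blastn 2.17.0 at 99% identity for mtDNA genes and 95% for nuclear genes, over at least 200 bases. The fit was run on simulated data with few changed genes, or with a length trend alone. In the real data 65.7% of genes tested were called, so the simulation gives no error rate for them. Libraries of a group differed beyond sampling noise (chi-square per degree of freedom 13.0 to 65.6). Library totals of 37759007 to 41735109 counts leave members under about 1 CPM with few reads.

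Named genes were the mtDNA-encoded members, the Sdh genes, the 3 highest and 3 lowest nuclear members by fold change in each other complex, the catalytic core, isoform and c-ring genes, and the highest and lowest gene of each pathway list with Cycs, Tfam, Ppargc1a, Ppargc1b and AA467197. Further members were named where they serve a comparison, and some genes that were examined are left out of the text. The members, lists and rule were chosen with earlier results of these data known. Alternatives were DESeq2 1.42.0, other scalings and filters, trend removal, each library left out, the replicate number as a block, and 2 chosen after seeing the data, which added nuclear or pseudogene copies.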

Additional observations from a re-analysis of the deposited data

How the results depend on the processing

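The direction of the nuclear and the mtDNA-encoded median was kept under every alternative run. With the length trend removed the median over all genes tested was 0.0173, close to the nuclear median given below. The mtDNA share uses raw counts, so scaling, filters, trend removal and the block could not change it. Its direction was kept with each library left out and with nuclear copies added. Removing the length trend moved the nuclear members to 20 called higher and 16 lower (main 57 and 2), or to 25 and 17 with the replicate block, and the median log2 fold change of nuclear members to 0.0265 (0.0247 with the block). It left 8, 4, 4 and 4 called higher in complexes I, III, IV and V (main 25, 7, 13 and 12), or 12, 4, 4 and 5 with the block, and the mtDNA-encoded median was -1.24 with or without the block. Removing the GC trend gave 4 nuclear members lower, 2 mtDNA-encoded members higher and 7 lower (main 0 and 11) and an mtDNA-encoded median of -0.41, each also with the block. No filter on counts gave 4 nuclear members lower. The cause was not tested.

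Leaving out 1 library at a time gave 40 to 63 nuclear members higher, 2 to 4 lower, 0 to 1 mtDNA-encoded members higher and 9 to 11 lower. Called higher were 16 to 28 in complex I, 7 to 8 in III, 8 to 14 in IV and 7 to 13 in V, with medians of 0.33 to 0.59 (nuclear) and -1.02 to -0.89 (mtDNA-encoded). The ratio of mtDNA-encoded shares was 0.472 to 0.523, the ratio of nuclear to mtDNA-encoded counts 2.43 to 2.97 times as high in TMAO, and all-gene calls 8629 to 9931. The labels do not say whether same-numbered libraries were paired. Correlations of same-numbered deviations were 0.0321, 0.1335 and -0.0672, and those of differently numbered ones ran from -0.1885 to 0.1585. With 3 libraries per group these values cannot settle pairing. The replicate block gave 59 nuclear members higher and 4 lower.

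Over 80 named genes and 1374 pairs of gene and alternative, 1184 kept direction and call, 88 lost the call, 51 gained it and 51 changed direction. With the length trend removed, and then also with the replicate block, the log2 fold change was -0.12 and -0.12 for Atp5c1, -0.20 and -0.20 for Atp5f1, -0.14 and -0.14 for Atp5g3, -0.11 and -0.12 for Cox5a, -0.0442 and -0.0453 for Cox6b1, -0.21 and -0.22 for Cox7a1, -0.0169 and -0.0161 for Cox7b, -0.26 and -0.25 for Cox8a, -0.0352 and -0.0372 for Ndufs7, -0.33 and -0.34 for Sdhd, -0.18 and -0.18 for Uqcrb and -0.28 and -0.28 for mt-Nd6, and 0.002 for Sdhc without the block. With the GC trend removed, and then also with the block, it was 0.0883 and 0.0846 for Uqcrc2, 0.58 and 0.58 for mt-Atp6, 0.0673 and 0.11 for mt-Co2, 0.22 and 0.22 for mt-Co3, 0.13 and 0.13 for mt-Nd3, and 0.11 and 0.12 for mt-Nd4. Atp5g2 turned to 0.0068 at a minimum of 1 CPM in 3 libraries. With 1 library left out, it ran from -0.1078 to 0.0833, Sdhb from -0.1466 to 0.0261, Sdhc from -0.1276 to 0.0284 and mt-Atp6 from -0.1737 to 0.0533. Tfam turned to -0.0183 by library size and -0.0083 with no filter, and ran from -0.0729 to 0.0627 with 1 library left out. Ndufa12 turned to 0.57 with pseudogene copies added.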
